A study of Homo sapiens with 15 samples.

Results

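The guanylate-binding proteins GBP1, GBP2, GBP3, GBP4 and GBP5 were examined in the human monocytic line THP-1, stimulated with bacterial extracellular vesicles (BEVs). The 5 genes were found by their symbols among the 60286 genes of the deposited count table, and all 5 were among the 17198 genes that passed the filter on low counts and were tested. Wild-type THP-1 cells were incubated for 6 h by the study's methods, while the labels of the libraries give day 0. Non-stimulated cells (NC) had PBS alone. In EUC and EPL the cells were given 1 μg/mL BEVs of *E. coli*, isolated by ultracentrifugation (UC) or with the epsilon-poly-L-lysine-based method (PL). In SUC and SPL they were given 10 μg/mL BEVs of *S. aureus*, isolated by UC or PL. There were 3 libraries in each of the 5 groups. Species and dose of BEVs changed together, so that they cannot be told apart here. The labels do not say that the 3 libraries came from separate cultures, so p-values measure only the spread between these libraries, which may be technical.

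Guanylate-binding proteins are large GTPases of the dynamin superfamily that interferons induce strongly in macrophages and many other cells. In the cytosol they assemble on pathogen vacuoles and on the surface of bacteria, where GBP1 binds lipopolysaccharide (LPS) and, with other family members, forms a platform that recruits caspase-4. GBP1, GBP2 and GBP5 end in a CaaX motif to which a lipid is attached (prenylation) and which anchors them in membranes, whereas GBP3 and GBP4 lack such a motif. Several members also take part in inflammasome activation and in the restriction of viruses.

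The libraries held 14399421 to 16637345 counts on genes. No replicate libraries were duplicates, since the chi-square per degree of freedom between replicates ranged from 2.2 to 46.1. The highest values in the EUC, EPL and SUC groups came from pairs that held EUC3, EPL1 or SUC3, and results are also given without these 3 libraries. Of 8 monocyte markers, CD68 was close to 0 with 18 counts over all libraries, and the other 7 were well covered. The summed level of these markers was 1000 to 1030 CPM (counts scaled to the normalised library size) in non-stimulated cells and 1490 to 2050 CPM in stimulated cells, mainly through SPI1, a myeloid transcription factor. Its part in the results was not tested. Markers of T cells and erythroid cells were at or near 0, with at most 0.0624 CPM in any library, those of NK cells reached at most 0.894 CPM, those of B cells 5.43 CPM and those of epithelial cells 4.05 CPM. The endothelial list gave 209 to 309 CPM, nearly all of it PECAM1, which monocytes express too.

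The 5 genes lie in one interval on the minus strand of chromosome 1, between positions 89006679 and 89272860 of hg38 (GENCODE release 44). GBP3 (ENSG00000117226, chr1:89006679-89022894) comes first along the chromosome, followed by GBP1 (ENSG00000117228, chr1:89051882-89065360), GBP2 (ENSG00000162645, chr1:89106132-89150456), GBP4 (ENSG00000162654, chr1:89181144-89198942) and GBP5 (ENSG00000154451, chr1:89256189-89272860). Other genes lie among them, such as GBP7, which overlaps GBP2 and ends before GBP4, and the pseudogene PTGES3P1 between GBP1 and GBP2. Their canonical transcripts have 11 exons, or 12 in GBP5, and encode between 586 residues (GBP5) and 640 residues (GBP4). The coding sequences of GBP1 and GBP3 were the most alike, with 91.6% identical aligned positions, and those of GBP4 shared 66.5 to 67.7% with the others. Even so, no stretch of 100 bases of the GBP2, GBP3 or GBP5 canonical transcripts occurred exactly in a transcript of another gene. For GBP1, 55 of 2784 such stretches (1.98%) also occurred in the pseudogene GBP1P1, and for GBP4, 6 of 6042 (0.0993%) occurred in CASP10. GBP2 and GBP7 share 621 exonic bases on the same strand, and reads there may be split or lost. Antisense transcripts overlap exons of GBP4 and GBP5 by 148 and 324 bases, with 1 and 0 counts over all libraries. The strand setting of the counting is not given in the sources used here.

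RefSeq start regions on GRCh38.p14 were at hand for 3 of the 5 members. They are shown because all 3 genes rose and each holds a short motif known from interferon-induced genes. The starts are those of RefSeq, and other transcripts in GENCODE begin 152 bases farther upstream in GBP1 and 28 bases in GBP3, so that the bases shown for GBP1 and GBP3 also lie within annotated exons. For GBP4 no transcript in GENCODE began upstream of the RefSeq start. A site of 30 bases around the motif is given for each gene, 5′ to 3′ on the minus strand, with matches in capitals.
GBP1, chr1:89065325-89065354: agtgatttgaacgaagtacTTTCAGTTTCa
GBP3, chr1:89022854-89022883: acTTCCTTGAAagaagtacTTTCAGTTTCa
GBP4, chr1:89198936-89198965: ccccacaaagtgcatgtccTTTCAATTTCg
For GBP4 a longer stretch, with 150 bases before the start of transcription and 30 from it, shows a match farther upstream as well.
GBP4, chr1:89198913-89199092: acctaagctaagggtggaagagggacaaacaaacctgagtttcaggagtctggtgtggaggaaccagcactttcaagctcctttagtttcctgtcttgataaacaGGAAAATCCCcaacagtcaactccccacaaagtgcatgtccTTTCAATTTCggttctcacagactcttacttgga

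The core of the interferon-stimulated response element (ISRE), searched on both strands as GAAA and GAAA with any 2 bases between them, occurred in the start regions of all 3 genes, each time on the complementary strand. It read GAAACTGAAA in GBP1 and GBP3 and GAAATTGAAA in GBP4. The match began 127 bases before the start in GBP1 and 4 bases before it in GBP4, where it spans the start, and in GBP3 it lay just after the start. Over 35116 RefSeq start regions of 300 bases, 3.57% held this motif. The gamma-activated site (GAS), searched as TTC and GAA with any 3 bases between them, began 15 bases before the start of GBP3 and was not found in the windows of the other two, and 7.66% of all start regions held it. An NF-kappa B motif, searched as GGGA and TTCC with any 2 bases between them, occurred once, 45 bases before the start of GBP4, as GGGATTTTCC on the complementary strand, against 1.61% of all start regions. A match of letters describes these windows and says nothing about binding.

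GBP1, the LPS-binding member, was nearly silent without BEVs. Its counts were 0, 1 and 1 in the 3 NC libraries, and 85, 85 and 84 in EUC. They were 71, 77 and 68 in EPL. In SUC they were 63, 49 and 61, and in SPL 58, 70 and 47. Every stimulated library thus lay far above every NC library. EUC had 5.50 ± 0.0456 CPM (SD, n = 3), a spread smaller than counting error alone would give at 84 to 85 counts. With only 2 counts over the NC libraries the ratio is poorly bounded from above. For *E. coli* BEVs it was 136 in EUC (95% exact interval 37.2 to 1130) and 114 in EPL (31.1 to 944), and for *S. aureus* BEVs 93.3 in SUC (25.4 to 777) and 94.6 in SPL (25.8 to 787), where these intervals cover counting error only.

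GBP2, which is prenylated and joins GBP1 on bacteria, had 1.34, 0.765 and 1.31 CPM in non-stimulated cells. It reached 42.7, 45.7 and 45.4 CPM in EUC and 38.5, 44.8 and 46.3 CPM in EPL. With *S. aureus* BEVs it had 33.8, 32.4 and 35.1 CPM in SUC and 33.7, 31.5 and 34.5 CPM in SPL. The libraries fell into 3 separate levels, with NC lowest, *S. aureus* BEVs between and *E. coli* BEVs highest, and without overlap.

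GBP5, a prenylated member of the Golgi that is known to inhibit the protease furin, rose as well. Its level in NC was 0.320, 0.353 and 0.537 CPM, from 5 to 9 counts per library. EUC had 28.6, 28.7 and 25.6 CPM, and EPL had 24.7, 29.8 and 26.7 CPM. SUC had 16.7, 12.7 and 14.3 CPM, and SPL had 16.4, 19.0 and 18.0 CPM. Again all *E. coli* BEV libraries were above all *S. aureus* BEV libraries, and the gap between the species was the widest of the 5 members.

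GBP3 and GBP4, the members without a CaaX motif, were already present in non-stimulated cells. GBP3 had 4.16, 6.53 and 5.48 CPM in NC, 21.7, 20.2 and 22.9 CPM in EUC and 23.3, 26.0 and 23.2 CPM in EPL. It had 21.2, 14.7 and 16.6 CPM in SUC and 19.0, 16.5 and 21.3 CPM in SPL, so that the SUC and SPL libraries were widely spread and the highest of them exceeded the lowest EUC library. GBP4 had 10.4, 11.1 and 10.0 CPM in NC, 52.9, 49.6 and 44.2 CPM in EUC and 46.8, 56.3 and 55.0 CPM in EPL. Its levels were 40.3, 37.1 and 34.5 CPM in SUC and 42.4, 40.3 and 43.8 CPM in SPL. For both genes the NC libraries were below all 12 stimulated libraries. The share of all tested genes whose libraries separate from NC, or between the species, is not given here.

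**Figure D1:**
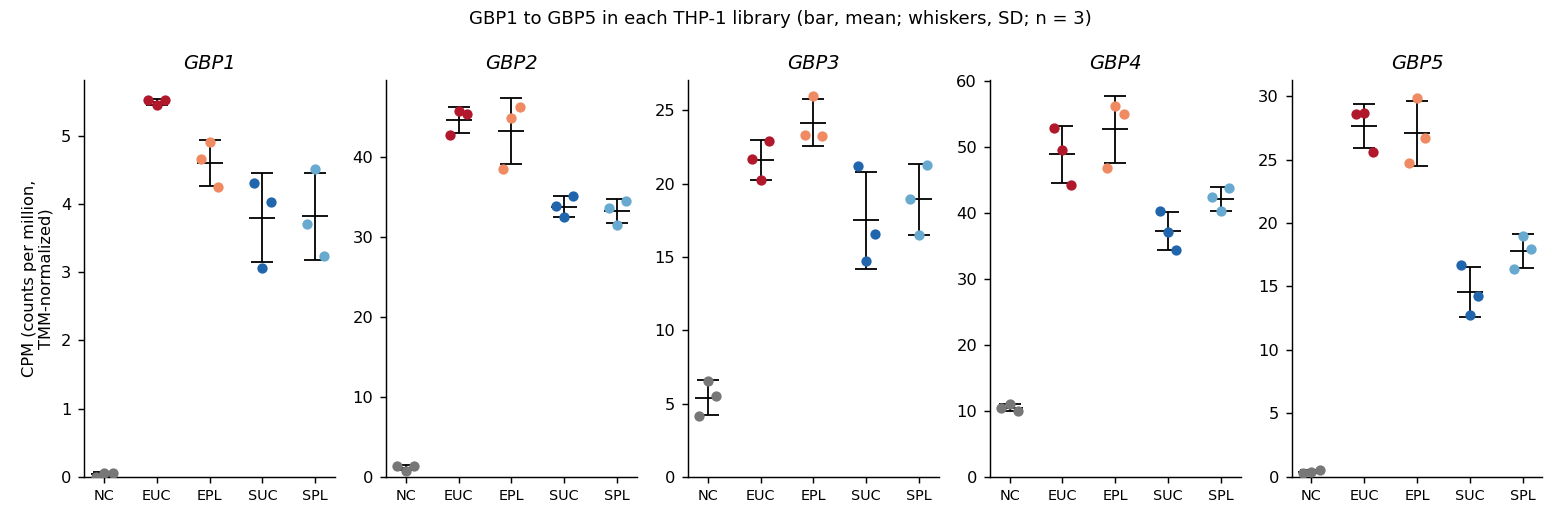
CPM (TMM-normalized, linear axes from 0 with a scale of their own per gene) of GBP1 to GBP5 in each of the 15 libraries, with the mean and SD of each group (n = 3). The 3 NC libraries are below all stimulated libraries for every gene, and for GBP2, GBP4 and GBP5 the EUC and EPL libraries are all above the SUC and SPL libraries.

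Each BEV group was compared with non-stimulated cells to ask how stimulation changed transcript levels. A differentially expressed gene (DEG) had a log2 fold change of 1 or more in size and passed an adjusted p of 0.01 in the quasi-likelihood test of edgeR, adjusted by Benjamini-Hochberg over all 17198 tested genes. All 5 GBP genes were up-regulated DEGs in each of the 4 comparisons. In EUC, 9.43% of all tested genes were up-regulated and 5.75% down-regulated. The shares were 9.38% and 5.15% for EPL, 6.82% and 3.06% for SUC, and 7.76% and 3.7% for SPL. For *E. coli* BEVs the 5 genes had a median log2 fold change of 5.29 (EUC) and 5.24 (EPL), and for *S. aureus* BEVs of 4.89 (SUC) and 4.86 (SPL), beside a median over all tested genes that stayed within 0.00673 of 0. The 4 comparisons share the NC libraries and are not independent of each other. In RNA from bulk cultures, more cells with a transcript and more transcript per cell cannot be told apart.

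As a fold over NC, the rise fell into a larger and a smaller class. The members of the larger class had the fewest counts over the NC libraries, 2 for GBP1, 20 for GBP5 and 56 for GBP2. GBP3 and GBP4 had 268 and 519. In EUC, GBP5 rose by 6.07 on the log2 scale (SE 0.189, adjusted p = 8.1e-14) and GBP2 by 5.29 (SE 0.148, adjusted p = 2.43e-14). GBP4 rose by 2.22 (SE 0.105, adjusted p = 1.83e-11) and GBP3 by 2.0 (SE 0.163, adjusted p = 2.44e-08). The fitted change of GBP1 was 6.83 (SE 0.373, adjusted p = 1.21e-10), which depends on the prior count that the fit adds to its near-empty NC libraries. The members with a CaaX motif thus had fitted changes between 4.86 and 6.83 over the 4 groups, and those without it between 1.69 and 2.33, a grouping made after these values were known. The 95% intervals of GBP2 and GBP5 did not overlap those of GBP3 and GBP4 in any group.

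The other 3 groups gave the same classes. In EPL, log2 fold changes were 6.57 for GBP1, 5.24 for GBP2, 2.16 for GBP3, 2.33 for GBP4 and 6.04 for GBP5. In SUC they were 6.29 for GBP1, 4.89 for GBP2, 1.69 for GBP3, 1.83 for GBP4 and 5.14 for GBP5. In SPL they were 6.30 for GBP1, 4.86 for GBP2, 1.81 for GBP3, 2.0 for GBP4 and 5.43 for GBP5. The largest adjusted p among these 15 values was 3.61e-07, for GBP3 in SUC. Each of the 5 genes was retested in each of the 4 comparisons with 9 other settings and with each of 6 libraries left out. The setting without the limit on the fold was no new fit and could not lose a DEG. In all 300 values so obtained, including those without EUC3, EPL1 and SUC3, the genes remained up-regulated DEGs.

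**Figure D2:**
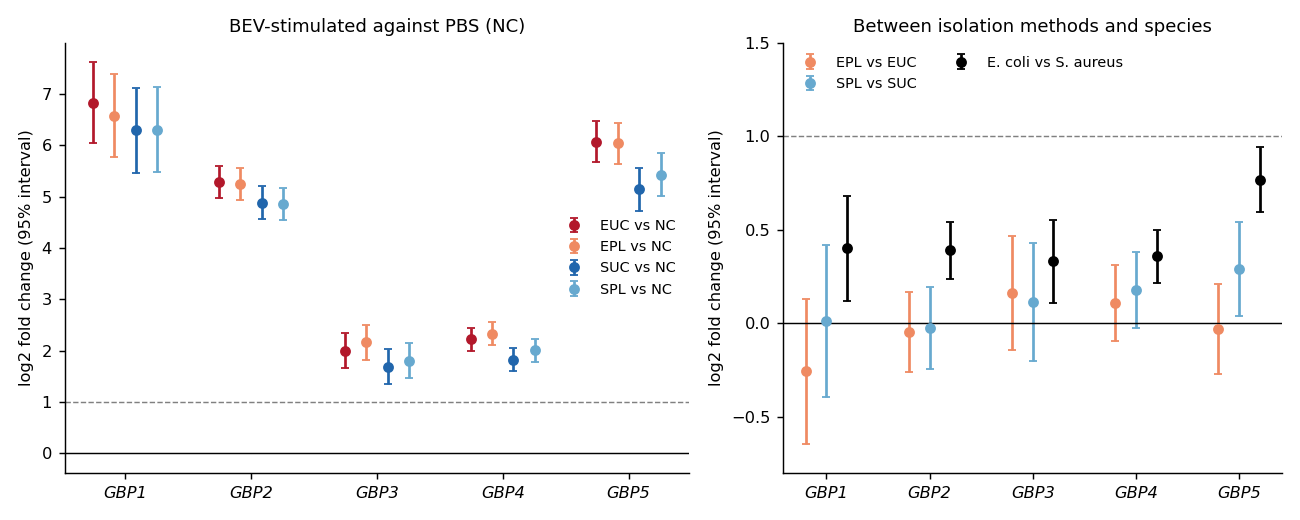
Log2 fold changes (points) with 95% intervals (bars) of the 5 GBP genes, against NC on the left and between isolation methods or species on the right. The dashed line is the limit of 1 for a DEG, which all members pass on the left and none on the right.

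Levels of different genes were set side by side only per length, as RPKM (CPM per kilobase of the union of annotated exons). In NC the order was GBP4 with 1.71 RPKM, GBP3 with 1.26, GBP2 with 0.158, GBP5 with 0.0368 and GBP1 with 0.00647, and no neighbours in this order overlapped over the 3 libraries. In every stimulated group GBP2 moved up to the second place. In EUC, GBP4 had 7.96 RPKM, GBP2 6.17, GBP3 5.05, GBP5 2.52 and GBP1 0.901, again without overlap between neighbours. In EPL, SUC and SPL the ranges of GBP2 and GBP3 overlapped, and these 2 did not differ beyond their spread. Together the 5 genes had 3.17 ± 0.294 RPKM in NC (SD, n = 3). Stimulation brought them to 22.6 ± 0.508 RPKM in EUC and 23.4 ± 1.82 RPKM in EPL, and to 16.8 ± 1.46 RPKM in SUC and 18.1 ± 0.912 RPKM in SPL.

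Shares of the summed RPKM are bound to move towards the members with larger fold changes, and here they moved towards GBP1, GBP2 and GBP5. GBP4 and GBP3 rose in level too, from 1.71 to 7.96 RPKM and from 1.26 to 5.05 RPKM between NC and EUC. In NC, GBP4 made up 54.2% and GBP3 39.4% of the summed RPKM, while GBP2 made up 5.09%, GBP5 1.16% and GBP1 0.196%. In EUC the shares were 35.2% for GBP4, 22.3% for GBP3, 27.3% for GBP2, 11.2% for GBP5 and 3.99% for GBP1. The 4 stimulated groups were alike in GBP4 (35.2 to 37.9%), in GBP3 (22.3 to 24.3%) and in GBP2 (25.4 to 28.0%). GBP5 held 10.5% in EPL, 7.90% in SUC and 8.97% in SPL, and no *S. aureus* BEV library reached the lowest *E. coli* BEV library (10.1% against 10.2%). These shares are a description with no test, and they depend on the length used. With the length of the canonical transcript, the order changed in all 5 groups, since GBP3 came before GBP4 in NC with overlap and GBP2 came first in the stimulated groups, with 10.9 RPKM in EUC.

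**Figure D3:**
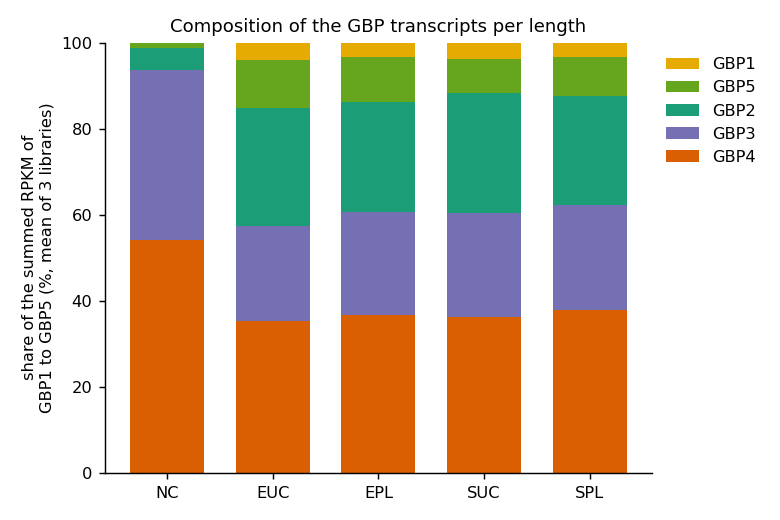
Share of each member in the summed RPKM of GBP1 to GBP5 (stacked bars from 0 to 100%, mean of 3 libraries per group). GBP4 and GBP3 make up most of the NC bar (54.2% and 39.4%), and GBP2 and GBP5 widen in the stimulated groups, to 27.3% and 11.2% in EUC.

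The PL method was compared with UC within each species, to see whether the way of isolation changed the response. No GBP gene was a DEG between EPL and EUC, where 0% of all tested genes were, nor between SPL and SUC, where 0.00581% (1 gene) were by edgeR and 2 genes by DESeq2. For EPL against EUC, the log2 difference was -0.26 for GBP1 (95% interval -0.64 to 0.13), -0.05 for GBP2 (-0.26 to 0.17), 0.16 for GBP3 (-0.15 to 0.47), 0.11 for GBP4 (-0.09 to 0.31) and -0.03 for GBP5 (-0.27 to 0.21). Adjusted p-values by edgeR lay between 0.947 and 0.973. None of these 5 genes reached an unadjusted p of 0.05, which 604 of all genes did, and DESeq2 also called 0 genes. The intervals leave room for differences of up to 0.64 on the log2 scale in GBP1 and up to 0.47 in the others.

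For SPL against SUC, the log2 difference was 0.01 for GBP1 (95% interval -0.39 to 0.42), -0.02 for GBP2 (-0.24 to 0.19), 0.11 for GBP3 (-0.20 to 0.43) and 0.18 for GBP4 (-0.03 to 0.38). GBP5 was 0.29 higher in SPL (0.04 to 0.54), with an unadjusted p of 0.0272 and an adjusted p of 0.814 by edgeR, and 1000 of all genes had an unadjusted p below 0.05. Its 3 SPL libraries and 3 SUC libraries overlapped at 16.4 and 16.7 CPM. Whether the effect of the method differed between the species was tested as an interaction, in which 0% of all genes and no GBP gene passed. GBP5 had the lowest unadjusted p of the members there, with a difference of 0.32 on the log2 scale (95% interval -0.03 to 0.67, adjusted p = 1 by edgeR). At an unadjusted p of 0.05 the interaction held 659 genes and 0 members, and DESeq2 called 3 genes, none of them a GBP.

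*E. coli* BEVs at 1 μg/mL and *S. aureus* BEVs at 10 μg/mL were compared as the mean of EUC and EPL against the mean of SUC and SPL. All 5 genes were higher with *E. coli* BEVs by estimate, and none was a DEG by edgeR or DESeq2, since no difference reached 2-fold, where 0.686% of all genes (118) were. At an adjusted p of at most 0.01 with no limit on the fold, 2.87% of all tested genes were higher with *E. coli* BEVs, and 3 of the 5 members were among them. An unadjusted p below 0.05 by edgeR was found for 2920 of all genes in either direction, and for all 5 members. GBP5 had 24.7 to 29.8 CPM (median 27.7) with *E. coli* BEVs and 12.7 to 19.0 CPM (median 16.5) with *S. aureus* BEVs. GBP5 was higher in 6 of 6 *E. coli* BEV libraries than in any *S. aureus* BEV library. The share of all tested genes that separate in this way is not given here. The difference of GBP5 was 0.77 on the log2 scale (SE 0.0825, adjusted p = 1.5e-05 by edgeR), a fold of 1.70. Without any single one of the 12 libraries the value stayed between 0.715 and 0.81, with adjusted p-values up to 0.000122.

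GBP2 and GBP4 differed less between the species. GBP2 had 38.5 to 46.3 CPM (median 45.1) with *E. coli* BEVs and 31.5 to 35.1 CPM (median 33.7) with *S. aureus* BEVs, a log2 difference of 0.39 (SE 0.0724, adjusted p = 0.00225). GBP4 had 44.2 to 56.3 CPM (median 51.2) and 34.5 to 43.8 CPM (median 40.3), a log2 difference of 0.36 (SE 0.068, adjusted p = 0.00282). The libraries of the species did not overlap for either gene, though for GBP4 the nearest were at 44.2 and 43.8 CPM. The adjusted p of both rose just above the threshold, to between 0.0101 and 0.0137, when EUC2, EPL2, EPL3, SUC2, SPL1 or SPL2 was left out, and the differences stayed between 0.32 and 0.428. Without EUC3, EPL1 and SUC3, the differences were 0.43 for GBP2, 0.40 for GBP4 and 0.81 for GBP5, and all 3 passed the adjusted p.

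GBP1 and GBP3 did not pass. GBP1 had 5.05 ± 0.535 CPM with *E. coli* BEVs and 3.81 ± 0.579 CPM with *S. aureus* BEVs (SD, n = 6), a log2 difference of 0.40 (SE 0.133, adjusted p = 0.0906 by edgeR). GBP3 had 22.9 ± 1.92 and 18.2 ± 2.71 CPM, a log2 difference of 0.33 (SE 0.104, adjusted p = 0.0726). In both genes, 5 of the 6 *E. coli* BEV libraries lay above all *S. aureus* BEV libraries. At these levels the depth gave GBP1 only 47 to 85 counts per stimulated library, which limits how small a difference can be resolved.

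The other genes of the family were almost silent. GBP6 had 1 count over all 15 libraries and GBP7 had 15, none of them in NC, and neither passed the filter. The pseudogene GBP1P1, which shares sequence with GBP1 as described above, had 2, 0 and 4 counts in NC. It had 84, 93 and 92 counts in EUC, 59, 74 and 69 in EPL, 46, 49 and 53 in SUC and 69, 82 and 47 in SPL. GBP1P1 was an up-regulated DEG in all 4 groups, with log2 fold changes of 5.49, 5.06, 4.65 and 5.06 in that order. How far reads of GBP1 and GBP1P1 were exchanged by the counting was not tested.

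Genes around the GBP interval were followed to see where along the chromosome the rise ended. Of the 5 nearest protein-coding genes on each side, 7 were tested. GTF2B, a general transcription factor on one side of the interval, rose by 1.12 in EUC and 1.00 in EPL as a DEG, and had log2 fold changes of 0.79 in SUC and 0.89 in SPL. RBMXL1, KYAT3 and PKN2 on the same side and LRRC8B on the other had values between -0.20 and 0.60. LRRC8C, a subunit of volume-regulated anion channels, and LMO4, a transcriptional cofactor, had values from -0.42 to -0.74 and from -0.49 to -0.73, short of the limit for a DEG. Inside the interval the processed pseudogene PTGES3P1 was low (0.946 CPM in NC and 2.13 CPM in stimulated cells) and had log2 fold changes of 1.31 (EUC), 1.00 (EPL), 1.11 (SUC) and 1.21 (SPL), with an adjusted p of 0.0119 in EPL.

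**Figure D4:**
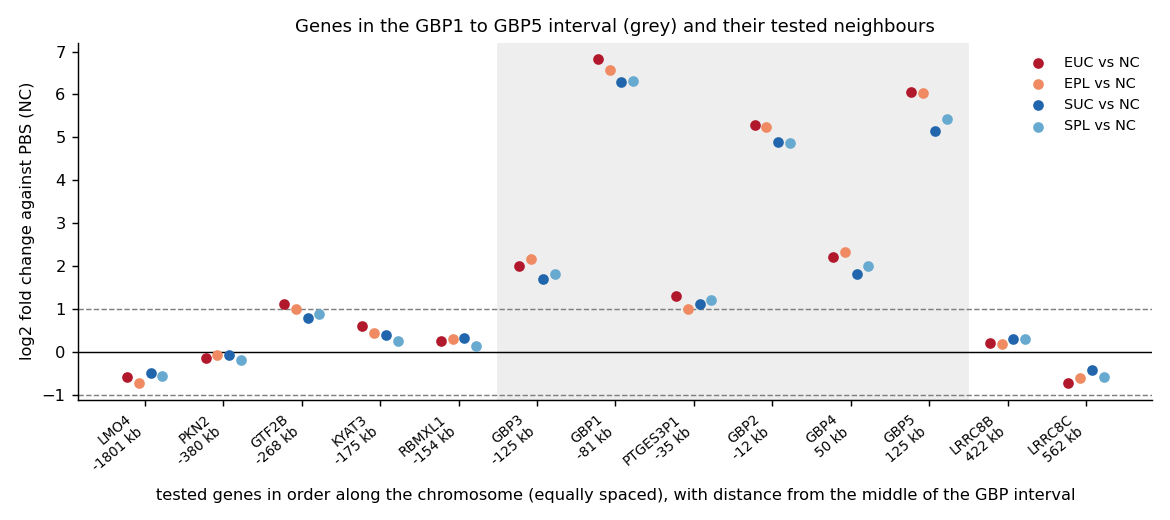
Log2 fold changes against NC of the tested genes inside the GBP interval (grey) and next to it, in chromosomal order with equal spacing and with the distance in kb from the middle of the interval. The 5 GBP genes stand above 1 in all 4 groups, and the flanking genes lie between -0.74 and 1.12.

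Interferons and their receptors were read next, since interferons are the known inducers of this family. The only ligands in this list were IFNG and IFNB1. Other interferon genes, and times other than the 6 h incubation, were not read. IFNG, the gene of interferon gamma, had 0 counts in all 15 libraries, which allows a level of up to 0.0128 CPM by counting error. IFNB1, the gene of interferon beta, was low, with 0.103 CPM in NC and 0.739, 0.622, 0.669 and 0.237 CPM in EUC, EPL, SUC and SPL. Its log2 fold changes were 2.77, 2.52, 2.64 and 1.18, from 110 counts over all libraries. With adjusted p-values of 0.0146, 0.0287, 0.0269 and 0.413 by edgeR it was not a DEG in any group. Of 5 tested genes of this list, 2 were up-regulated DEGs in EUC and in EPL and 1 in SUC and in SPL. Beside this and the following lists, 9.43%, 9.38%, 6.82% and 7.76% of all tested genes were up-regulated in EUC, EPL, SUC and SPL. IFNGR2, a chain of the interferon gamma receptor, rose by 1.79, 1.65, 1.73 and 1.73 on the log2 scale. IFNGR1, the ligand-binding chain, rose by 1.07 in EUC and 1.08 in EPL, and had 0.70 and 0.71 in SUC and SPL.

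Of 10 tested genes of interferon signalling reported here, 6 rose in EUC, EPL and SPL and 5 in SUC, and 1 fell in each. Both transcription factors and inhibitors of the pathway were among those that rose. STAT2, a transcription factor that the type I receptor activates, went from 49.5 CPM to 211 to 326 CPM. IRF1 rose by 1.54, 1.40, 1.23 and 1.32 on the log2 scale in EUC, EPL, SUC and SPL. USP18, a feedback inhibitor of the type I receptor, rose by 3.84, 3.80, 3.36 and 3.48. IRF8, a myeloid transcription factor, was the gene that fell, from 1050 CPM in NC to 270.3 to 397 CPM in the stimulated groups. The kinases JAK1, JAK2 and TYK2 had log2 fold changes of at most 0.61.

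Of 5 tested NF-kappa B subunits, NFKB1, NFKB2 and RELB rose in all 4 groups. NFKB2 rose by 4.34, 4.21, 3.76 and 3.97 on the log2 scale, and RELA, the main activating subunit, had values between -0.03 and 0.12. Among 7 tested related GTPases, MX1 and MX2, the antiviral dynamin-like proteins, were up-regulated DEGs in all 4 groups and the other 5 were not DEGs. MX1 went from 5.05 CPM in NC to 117, 118, 76.3 and 93.9 CPM. The 5 enzymes that process CaaX motifs, which GBP1, GBP2 and GBP5 need for their lipid anchor, included no DEG, and their log2 fold changes lay between -0.53 and 0.28.

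Of 10 tested caspases, inflammasome genes and effectors linked to GBPs, 7 rose in EUC and EPL, 4 in SUC and 5 in SPL. CASP4, the caspase that the GBP platform recruits, had 38.3 CPM in NC and 80.0, 78.2, 68.8 and 72.2 CPM in EUC, EPL, SUC and SPL. Its log2 fold changes were 1.06, 1.03, 0.84 and 0.91, and the log2 difference of 0.17 between the species (adjusted p = 0.0885 by edgeR) did not pass. In SUC, CASP4 and CASP1 (0.96) passed the adjusted p but not the limit on the fold. There CASP5 (2.22) passed the limit on the fold but not the adjusted p. APOL3, a detergent-like protein that acts with GBPs on bacteria, went from 0.581 CPM in NC to 9.45, 9.51, 5.25 and 7.11 CPM. GSDMD, the pore-forming substrate of CASP4, and NLRP3, an inflammasome sensor, had log2 fold changes of at most 0.25. PYCARD, the adaptor of inflammasomes, fell by 1.21, 1.44 and 1.09 on the log2 scale in EUC, EPL and SPL. Of the binding partners, PIM1, a kinase that holds GBP1 inactive, rose in all 4 groups by 1.72 to 2.08, and FURIN, which GBP5 and GBP2 inhibit, had values between -0.04 and 0.29.

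**Figure D5:**
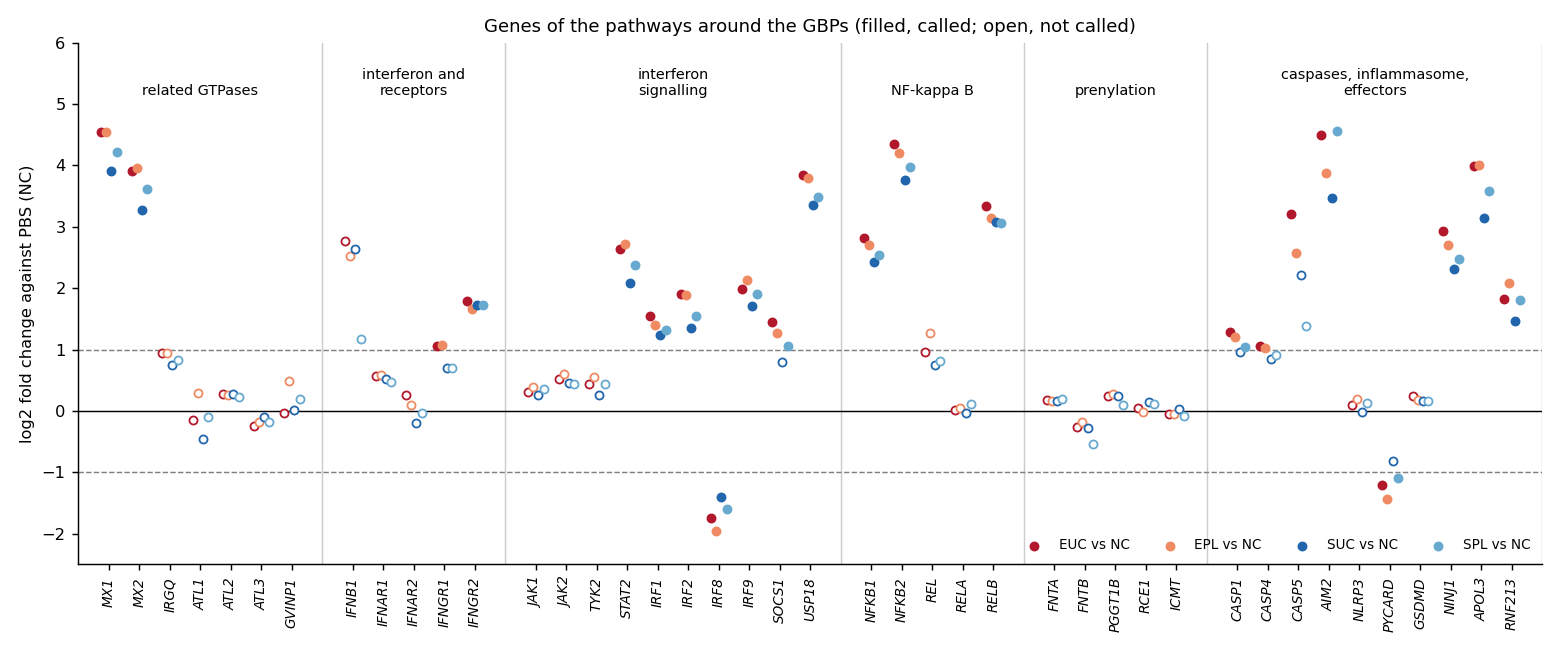
Log2 fold changes against NC of the tested genes of 6 lists around the GBPs, with filled points for DEGs and open points for the rest. MX1, MX2, USP18, NFKB2, RELB, APOL3 and AIM2 (93 counts over all libraries) are above 3 in all 4 groups, IRF8 is below -1, and the prenylation enzymes stay between -0.53 and 0.28.

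None of these listed genes was a DEG between isolation methods or between species. At an adjusted p of at most 0.01 with no limit on the fold, MX1 (0.47), MX2 (0.49), STAT2 (0.45), IRF2 (0.45), USP18 (0.40), IFNGR1 (0.37), NFKB1 (0.28), NFKB2 (0.41) and NINJ1 (0.43) were higher with *E. coli* BEVs on the log2 scale, and IRF8 was lower (-0.35). The differences of GBP2 and GBP4, 0.39 and 0.36, stood among these values, and that of GBP5, 0.77, was above them. Among all 17198 tested genes the difference of GBP5 came at place 396. Of the listed genes that did not pass, CASP5 had 1.10 (adjusted p = 0.123 by edgeR, 139 counts over all libraries) and APOL3 0.63 (adjusted p = 0.0282).

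The genes whose levels followed each member most closely were sought by the root mean square (RMS) difference of log2 CPM from the NC mean over the 12 stimulated libraries, among 14526 genes. GBP4 had the closest match, HRH1, the histamine H1 receptor, with an RMS difference of 0.0708, and ABCC1, a drug transporter, was also among its nearest 3, with 0.111. GBP3 was followed by RSAD2 (0.162), LAMB3 (0.171) and ATP2B1 (0.177). GBP2 was followed by the interferon-stimulated gene IFI44 (0.145), by RNF144B (0.157) and by IFIT1 (0.205). For GBP5 the nearest were MGLL (0.172), IGFBP3 (0.198) and SERPINE2 (0.216). These 3 were higher with *E. coli* than with *S. aureus* BEVs, by 0.66, 0.565 and 0.94 on the log2 scale in that order. Their likeness to GBP5 in this is largely a result of the search, which used the same 12 libraries. For GBP1 the nearest were RNF144B (0.223), BTG2 (0.224) and CD40 (0.242), and none of these 3 was kept with a smaller prior count, so that the likeness of GBP1 rests on that setting. No member was among the nearest 3 of another. The closest members were GBP3 and GBP4 (0.218) and GBP1 and GBP2 (0.269). Pairs across the larger and the smaller class differed by 2.69 to 3.43, which restates the classes, since both rest on the change from NC.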

How the data were processed

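Total RNA of 15 THP-1 libraries was extracted with Trizol, and both ends of the fragments were sequenced. After a FastQC check, the authors mapped the reads to hg38 by HISAT2 and deposited whole-number read counts per gene without normalization. The submitters' processing notes name FastQC 0.11.5, HISAT2 2.1.0, StringTie 1.3.3b, DESeq 1.28.0 and featureCounts. Neither strand setting nor annotation release of the counting is given in the sources used here. Groups came from the labels.

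The counts were fitted here with edgeR 4.0.16 (R 4.3.3) over all 15 libraries, with filterByExpr, TMM, glmQLFit and glmQLFTest. No replicate block was used, since the study's methods name none. Deviations of same-numbered libraries had a median r of 0.0218 over 30 pairs, 7 of them over 0.1. Some pairs did deviate together, with r up to 0.525 for EUC3 and SUC3, and others apart, down to -0.452 for EUC1 and EPL1. The common biological coefficient of variation was 0.118. DESeq2 1.42.0 was an alternative, as were other scalings, filters, thresholds and sets of libraries. CPM are counts divided by the TMM-scaled library size over tested genes, and fitted folds carry edgeR's prior count. Log2 CPM used a prior count of 2. Ratios from 1 to 3 counts have exact 95% binomial intervals, and a count of 0 was read as up to 3 counts. Positions, lengths and overlaps are from GENCODE release 44. The fit was tested on simulated counts. Named are the 5 members, the 3 tested genes most like each (mean CPM of at least 1), the genes of 8 lists and the 5 nearest protein-coding genes on each side. The members and the lists were chosen with earlier results of these data known, and 1 item is not reported here.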

Additional observations from a re-analysis of the deposited data

Results flagged for a closer look

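For 3 of the 5 GBP genes the response differed between the species by the direct edgeR test of the *E. coli* BEV groups against the *S. aureus* BEV groups at an adjusted p of at most 0.01, below the fold limit for a DEG. By edgeR, the log2 differences were 0.77 for GBP5 (adjusted p = 1.5e-05), 0.39 for GBP2 (adjusted p = 0.00225) and 0.36 for GBP4 (adjusted p = 0.00282). Each was higher in 6 of 6 *E. coli* BEV libraries than in any *S. aureus* BEV library, for GBP4 narrowly (44.2 against 43.8 CPM). The share of all tested genes that separate in this way is not given here. The dose of BEVs differed with the species, and the 2 cannot be told apart. Groups of 3 libraries are too small for the check for single outlying samples.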

How the results depend on the processing

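Against NC, the 5 members kept the direction and the call in all 300 values, which count each gene, comparison and setting once. The settings were other scalings, no filter, DESeq2, a test against a 2-fold change (glmTreat), only the groups compared, the replicate block, each library left out in turn, and EUC3, EPL1 and SUC3 left out together. That last setting was chosen after seeing the data. A further setting dropped the limit on the fold, which is no new fit and could not lose a call. Leaving out a library moved GBP1 in EUC between 6.36 and 7.15 on the log2 scale, and GBP5 between 5.93 and 6.32. The count of members that were DEGs stayed at 5 against NC and at 0 between methods and species, and the replicate block changed no call of a member. Same-numbered libraries had correlations of their deviations between -0.452 and 0.525 over 30 pairs. With the block, 2553, 2449, 1677 and 1938 genes were DEGs in EUC, EPL, SUC and SPL, against 2610, 2498, 1700 and 1972 without it.

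Without the limit on the fold, 3 members passed between species, together with 665 genes, and 5251, 5026, 3697 and 4114 genes passed against NC. With glmTreat 1393, 1309, 807 and 1003 genes passed against NC, 5 between species and 0 between SPL and SUC, none of them a member in the last 2. For SPL against SUC, 2 genes passed in place of 1 with DESeq2, with no filter, with only the groups compared and without the 3 libraries, and the interaction gave 3 genes with DESeq2 and 4 with no filter or without the 3 libraries, in place of 0. With library totals in place of TMM, the median log2 fold change of all genes was -0.161 (EUC), -0.125 (EPL), -0.114 (SUC) and -0.121 (SPL), and the share of up-regulated among all DEGs in EUC went from 62.1% to 50.8%. GBP4 then had an adjusted p of 0.0156 between species.

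The signs that turned belong to differences near 0, and none passed the threshold. With library totals, GBP5 for EPL against EUC was 0.00809 and the interaction of GBP2 was -0.012. Without the 3 libraries, GBP2 was 0.0477 for EPL against EUC and 0.00217 for SPL against SUC, and the interactions of GBP2 and GBP4 were -0.0455 and -0.000354. With each library left out in turn, EPL against EUC lay between -0.105 and 0.0294 for GBP2 and between -0.105 and 0.0311 for GBP5. SPL against SUC lay between -0.126 and 0.121 for GBP1 and between -0.0527 and 0.0117 for GBP2. The interaction lay between -0.0545 and 0.0835 for GBP2, between -0.157 and 0.115 for GBP3 and between -0.00829 and 0.139 for GBP4. The order by level per length was kept in 0 of 5 groups with the length of the canonical transcript, by construction of that length. With a prior count of 0.5, 10 of the 15 genes most like the members were kept, all 3 for GBP3 and GBP4, 2 for GBP2 and GBP5 and 0 for GBP1. Depth limits GBP1, with 0 to 1 counts in NC.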
